A study of Homo sapiens with 34 samples.

Results

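Integrins are the transmembrane receptors by which cells hold on to the extracellular matrix. Described here are 10 of their subunit genes, namely ITGA2, ITGA3, ITGA5, ITGA6, ITGAV, ITGB1, ITGB3, ITGB4, ITGB5 and ITGB6, picked by symbol as the receptors for collagen, laminin, fibronectin and vitronectin. All 10 were rows of the count table, which held 26336 genes in 34 RNA-seq libraries of 4 lines of human prostate cells. RWPE is non-tumorigenic prostate epithelium, LNCaP came from a lymph node metastasis, and VCaP and MDAPCa2a came from bone metastases. The study asked how such cells change their transcripts when grown on ACP, amorphous calcium phosphate, which coats the dish to stand in for bone mineral, and how androgen bears on this.

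The libraries formed 17 groups. RWPE was grown in serum-free keratinocyte medium on plastic (2 libraries) or on ACP (2 libraries), and on ACP with androgen (3 libraries). LNCaP was grown on plastic in control medium and with serum that charcoal and dextran had stripped of steroids, and on ACP in control medium, in stripped serum and in stripped serum with androgen, with 2 libraries in each group. VCaP had the same 5 groups with 2 libraries each, except for stripped serum on plastic, which had 1. MDAPCa2a had 2 libraries in each of 4 groups and none on ACP in control medium. The androgen is called DHT in the sample titles and testosterone in the treatment labels, both at 100 mM, so it is called androgen here. According to the protocol the androgen medium held stripped serum, so in RWPE the comparison of androgen with control medium also changes serum, and both cannot be told apart. MDAPCa2a plastic carried a protein coating, FNC, that the ACP surface did not have, so coating and surface cannot be told apart in that line. Plastic control cultures are labelled as continuous culture and all others as day 4. Each line is 1 cell line, and nothing states that replicates came from separate cultures, so p-values measure the spread between these libraries, which may be technical.

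Libraries held 15440141 to 44779246 counts. The basal epithelial markers KRT5, KRT14 and TP63 summed to 3358 to 15852 CPM (counts per 1000000 counts of a library) in RWPE and to at most 37.3 CPM in the cancer lines, while ERG, which is driven by a gene fusion in VCaP, reached 125 to 873 CPM in VCaP and at most 2.32 CPM elsewhere. The 8 plastic control libraries stood apart: FGG, a liver fibrinogen gene, was at 1.41 to 2.83 CPM in every one of them and had 0 reads in 25 of the other 26 libraries. They were also deeper, with at least 34947115 counts against at most 37015516 in the others. Whatever set these libraries apart cannot be told apart from plastic or control medium in any comparison against plastic control.

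An integrin is a dimer of an alpha and a beta subunit, and the pair decides which matrix protein is bound. ITGB1 is the common partner of ITGA2 (collagen), ITGA3 and ITGA6 (laminin) and ITGA5 (fibronectin), whereas ITGB4 pairs with ITGA6 alone and joins laminin to the keratin skeleton in hemidesmosomes. ITGAV pairs with ITGB1, ITGB3, ITGB5 or ITGB6 and binds ligands with an RGD motif, such as vitronectin and the latent form of TGF-beta. Basal cells of the normal prostate carry hemidesmosomes on their basement membrane, and these are known to be lost in prostate carcinoma. Bulk RNA cannot separate fewer cells of a type from less RNA per cell.

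The question of ACP against plastic could be asked in 6 pairs of groups, and in 5 of them none of the 10 genes passed the test. The exception was the laminin receptor subunit ITGA3 in RWPE, which was lower on ACP. The same comparison in RWPE held similar but uncalled differences in ITGB4, ITGB5 and ITGA5. A call is an adjusted p below 0.05 in edgeR's quasi-likelihood test over all genes of the fit, and differences are log2 differences with their standard error (SE).

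**Figure D1:**
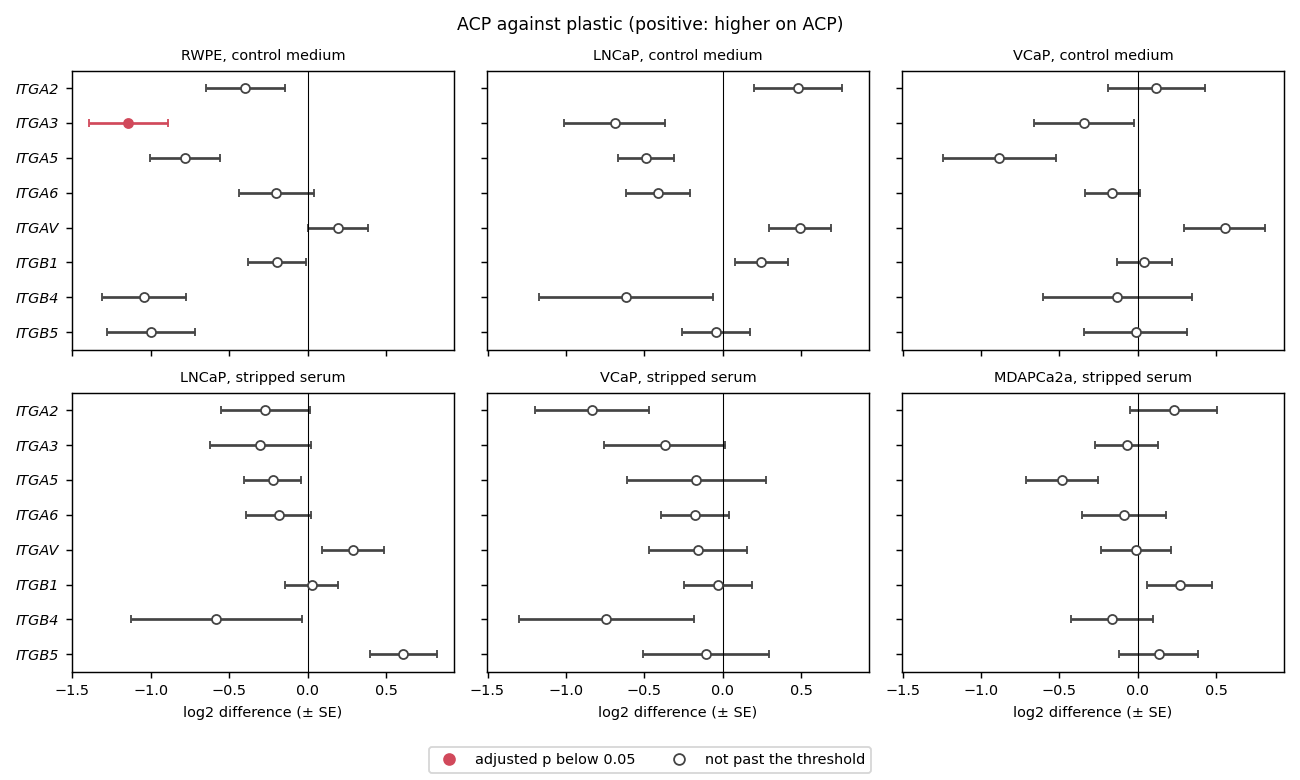
Log2 difference of ACP against plastic (x axis, points with SE bars) for 8 integrin genes (y axis) in the 6 pairs of groups. Positive values are higher on ACP and filled red points passed the threshold. ITGA3 in RWPE, at -1.14, is the filled point, and ITGB3 and ITGB6 are left out because of their low counts in most lines.

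In RWPE, ITGA3 measured 1257 and 1228 CPM on plastic and 623 and 479 CPM on ACP in control medium, so the groups did not overlap. The log2 difference was -1.14 ± 0.25 (adjusted p = 0.0342). Without each of the 4 libraries in turn it lay between -1.34 and -0.99 and was no longer called (adjusted p 0.15 to 0.333). ITGB4 measured 1874 and 1690 CPM on plastic and 967 and 730 CPM on ACP, a log2 difference of -1.04 ± 0.27 (adjusted p = 0.0566). ITGB5, a vitronectin receptor subunit, measured 73.9 and 84.1 CPM on plastic and 45.8 and 31.6 CPM on ACP, a difference of -1.0003 ± 0.28 (adjusted p = 0.073). The fibronectin receptor subunit ITGA5 was at 148 and 174 CPM on plastic and at 99.1 and 84.0 CPM on ACP, with a difference of -0.78 ± 0.22 (adjusted p = 0.0754). In these 3 genes, too, both ACP libraries lay below both plastic libraries. Dropping the count filter or using DESeq2 called all 3 of them along with ITGA3.

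The other members showed smaller differences in RWPE. ITGA6, the laminin subunit that pairs with ITGB4, was at 485 and 493 CPM on plastic and at 403 and 429 CPM on ACP, a log2 difference of -0.20 ± 0.24. ITGA2 was at 82.3 and 88.4 CPM against 60.3 and 66.5 CPM, a difference of -0.40 ± 0.25. ITGB1 differed by -0.19 ± 0.19, ITGAV by 0.19 ± 0.19 and ITGB6 by 0.07 ± 0.33, and none of these 5 was called. Of the 9 members that passed the filter on low counts, 1 was called, and 4.16% of the 14293 genes tested were called. The median difference of the 9 was -0.40, and that of all genes tested was 0.03. Of the 9, 7 had groups that did not overlap, as did 67.3% of all genes tested.

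ITGB3, the beta subunit of the vitronectin receptor of osteoclasts, was at or near 0 in RWPE. It had 5 and 17 reads on plastic, 0 and 0 on ACP in control medium, and 1, 1 and 0 with androgen. Over all lines, 7 of the 8 plastic control libraries had reads of it, from 2 to 24. The plastic control libraries were also those that held FGG, and they were deeper. Libraries outside plastic control had reads of ITGB3 too. Its highest level, 0.771 CPM, was in VCaP on ACP with androgen, where FGG was at 0.

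In LNCaP in control medium, 0 of 9 members tested were called by either edgeR or DESeq2, 3 had an unadjusted p below 0.05 in edgeR, while 12.6% of all genes tested were called. ITGA5 measured 51.2 and 44.4 CPM on plastic and 27.1 and 36.5 CPM on ACP (log2 difference -0.49 ± 0.18, adjusted p = 0.0894). ITGAV measured 110 and 105 CPM on plastic and 122 and 162 CPM on ACP (0.49 ± 0.20, adjusted p = 0.119). ITGA3 was at 19.03 and 19.9 CPM on plastic, and its 2 ACP libraries were far apart, at 6.83 and 15.8 CPM (-0.69 ± 0.32, adjusted p = 0.17). Without the second of these ACP libraries, replicate 2, ITGA3 (-1.41, adjusted p = 0.0145) and ITGA5 (-0.72, adjusted p = 0.0417) were called lower on ACP. ITGA6 was at 84.2 and 79.5 CPM against 52.1 and 62.7 CPM, a difference of -0.41 ± 0.21. ITGB1, the most abundant member in LNCaP per length, was at 387 and 385 CPM against 420 and 434 CPM, a difference of 0.24 ± 0.17. The remaining members ITGA2, ITGB4 and ITGB5 had overlapping groups. Of the 9 members tested, 6 had groups that did not overlap, as did 67% of all genes tested. ITGB6 was at 0.105 and 0.0664 CPM on plastic and at 0.107 and 0.623 CPM on ACP, too low to read a difference from.

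In LNCaP in stripped serum, 0 of 9 members tested were called, 2 had an unadjusted p below 0.05 and none was called by DESeq2, beside 6.12% of all genes tested. ITGB5 stood closest to the threshold, with 61.9 and 52.7 CPM on plastic and 84.6 and 86.7 CPM on ACP (0.61 ± 0.21, adjusted p = 0.107). Both ACP libraries were higher than both plastic libraries, in a comparison where 54.4% of all genes tested had groups that did not overlap. In control medium the same gene had shown no such gap, with 49.1 and 45.8 CPM on plastic and 39.9 and 46.0 CPM on ACP. The test of that change in the surface difference between media gave 0.65 ± 0.30 (adjusted p = 0.58), and 0 of 9 members were called in it, none had an unadjusted p below 0.05 and none was called by DESeq2, beside 0.307% of all genes tested.

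In VCaP in control medium, 0 of 10 members were called, 1 had an unadjusted p below 0.05 and none was called by DESeq2, and 0.0448% of all genes tested were called. ITGA5 measured 5.92 and 5.91 CPM on plastic and 3.85 and 2.24 CPM on ACP (-0.88 ± 0.36, adjusted p = 0.68). ITGAV measured 55.2 and 96.2 CPM on plastic and 112 and 99.1 CPM on ACP (0.55 ± 0.26, adjusted p = 0.682). Both genes had groups that did not overlap, as did 42.8% of all genes tested. Libraries of a group varied more in VCaP than in the other lines, with a coefficient of variation in edgeR's fit of 24.9% against 16.8% to 18.6%. In stripped serum, with 1 plastic library that is assumed to vary like the other groups, 0 of 10 members were called, 1 had an unadjusted p below 0.05 and none was called by DESeq2. In that comparison 0% of all genes tested were called (DESeq2 called 3, and 511 had an unadjusted p below 0.05). The collagen receptor subunit ITGA2 was at 13.3 CPM in the plastic library and at 6.88 and 7.87 CPM on ACP (-0.83 ± 0.36). With that 1 plastic library, 8 of 10 members had groups that did not overlap, as did 61.6% of all genes tested.

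In MDAPCa2a in stripped serum, 0 of 9 members tested were called, none had an unadjusted p below 0.05 and none was called by DESeq2, beside 0.00734% of all genes tested. ITGA5 was again lower on ACP in both libraries, with 20.0 and 25.8 CPM against 42.2 and 26.1 CPM on plastic (-0.48 ± 0.23, adjusted p = 0.354). The other 8 members had overlapping groups, and 41.2% of all genes tested had groups that did not overlap. Over the 6 surface comparisons, ITGA3 (-1.14 to -0.07), ITGA5 (-0.88 to -0.17), ITGA6 (-0.41 to -0.09) and ITGB4 (-1.04 to -0.13) had a negative difference in each, 4 of the 9 members tested in all of them, beside 1362 of 12334 genes. ITGA5 was also lower in every ACP library than in any plastic library of its pair in all 6, as were 1.56% of these genes, without a call in any of them. The 3 comparisons in control medium and the 3 in stripped serum have no library in common.

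Whether the surface difference itself differed between lines was tested in the fit of all 34 libraries. In control medium, LNCaP against RWPE, 0 of 10 members were called and 0.156% of all genes tested. In stripped serum, 0 of 10 were called for LNCaP against VCaP (0.127% of all genes) and 0 of 10 for LNCaP against MDAPCa2a (0.358% of all genes). DESeq2 called none of them either, and no unadjusted p was below 0.05 in these 3 tests. In 2 further contrasts, added after seeing the data, none was called and 1 member each had an unadjusted p below 0.05. One was ITGB5 for RWPE minus VCaP in control medium (-0.96 ± 0.46, adjusted p = 0.638), where 32 of 17323 genes were called. The other was ITGA2 for VCaP minus MDAPCa2a in stripped serum (-1.01 ± 0.47, adjusted p = 0.584), where 0 of 17323 were called. Another added contrast, LNCaP minus VCaP in control medium, called no member and 4 of 17323 genes. The call of ITGA3 in RWPE is therefore not shown to set RWPE apart: its difference from LNCaP was 0.38 ± 0.47 (adjusted p = 0.873).

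**Figure D2:**
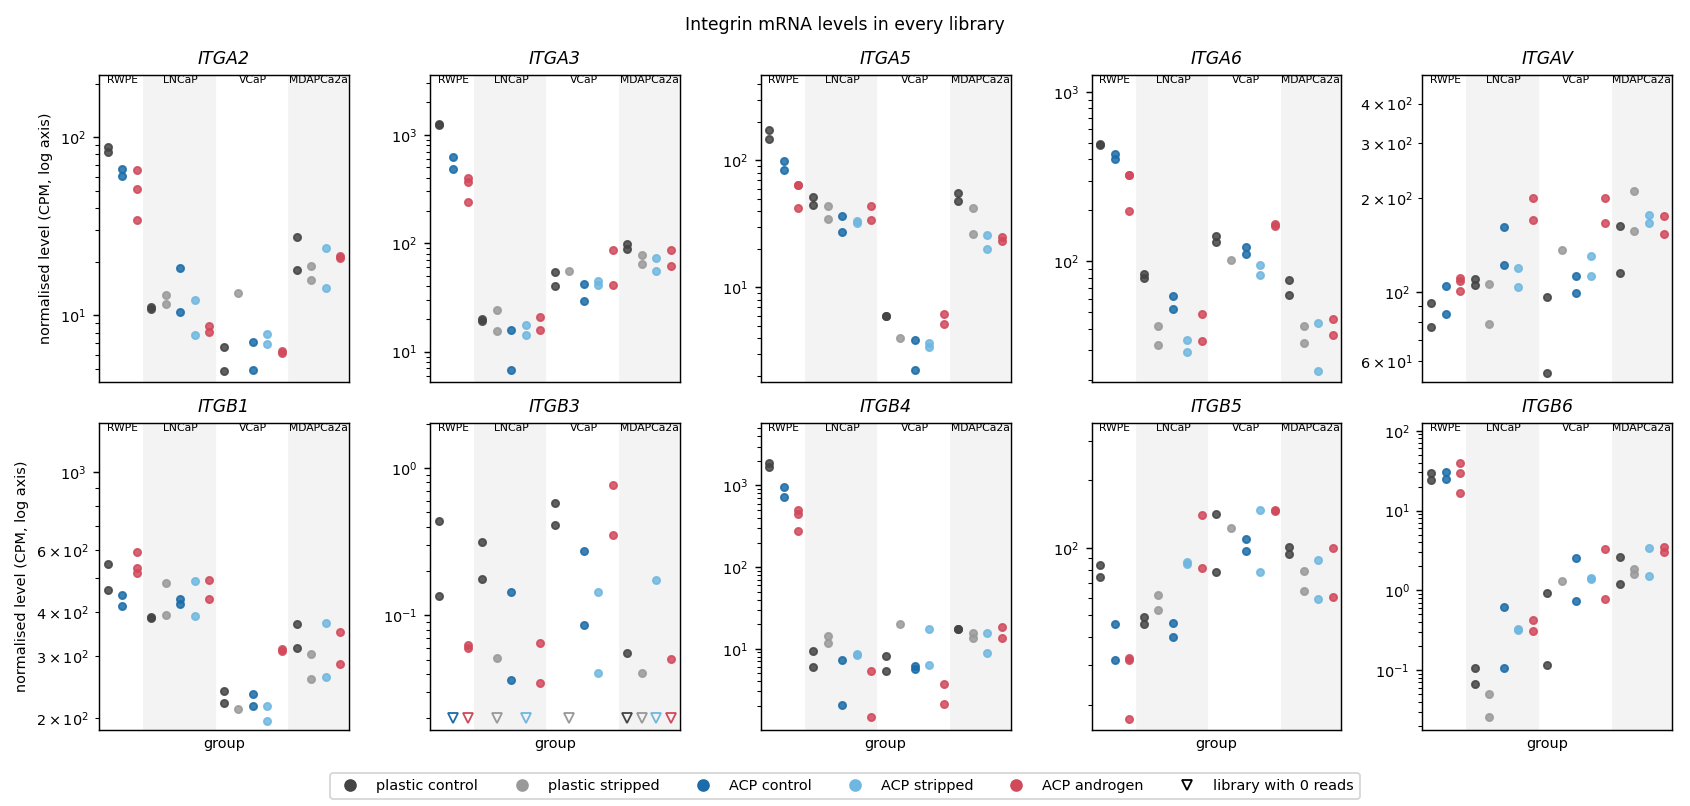
Normalised level of each integrin gene (CPM, log axis) in every library, by group along the x axis with the 4 lines in alternating bands; each point is 1 library, colours give surface and medium, and open triangles mark libraries with 0 reads. ITGB4 lies between 277 and 1874 CPM in RWPE and at most at 20.0 CPM in the cancer lines, and ITGB1 lies between 195 and 593 CPM in all libraries.

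Genes of the integrins' partners were called for surface in RWPE and LNCaP. Of 20 matrix ligand genes tested in RWPE in control medium, 1 was higher and 7 were lower on ACP, with a median of -0.62, against 0.03 over all genes. In that comparison 4.16% of all genes tested were called. TNC, the matrix protein tenascin C, fell by 2.62 ± 0.36 on the log2 scale (37.6 CPM on ACP and 236 CPM on plastic, adjusted p = 0.00771), and NPNT, a basement membrane ligand of integrins, rose by 1.54 ± 0.23 (17.02 against 5.96 CPM, adjusted p = 0.0104). Of 26 focal adhesion genes, 0 rose and 2 fell, among them the actin crosslinker FLNA (-1.37 ± 0.26, adjusted p = 0.0213). PLEC, which encodes the plectin that ties ITGB4 to keratin, fell by 1.27 ± 0.25 (1164 against 2866 CPM, adjusted p = 0.0246), the 1 called gene of 7 hemidesmosome and tetraspanin partners.

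LNCaP in control medium showed 7 of 19 matrix ligand genes lower and 0 higher on ACP, with a median of -0.53 and LAMA5, a laminin chain, at -1.29 ± 0.19 (adjusted p = 0.00833). Of all genes tested there, 12.6% were called. The talin gene TLN1, whose product activates integrins, fell by 0.87 ± 0.18 (adjusted p = 0.017). PLEC fell by 1.09 ± 0.23 (adjusted p = 0.0165), and CD9, a tetraspanin that associates with integrins, rose by 0.93 ± 0.14 (adjusted p = 0.00833). In stripped serum 2 of 19 matrix ligand genes were higher and 2 lower on ACP, where 6.12% of all genes tested were called. FN1, fibronectin, rose by 2.25 ± 0.33 (adjusted p = 0.00429), while its receptor subunit ITGA5 differed by -0.22 ± 0.18. The surface difference of FN1 was 2.59 ± 0.45 larger in stripped serum than in control medium (adjusted p = 0.0383). Outside the 10 members, ITGAE, an integrin subunit of mucosal lymphocytes, rose on ACP in control medium in RWPE (1.21 ± 0.28, 9.68 against 4.26 CPM, adjusted p = 0.0425) and in LNCaP (1.76 ± 0.21, 13.1 against 4.13 CPM, adjusted p = 0.00833). In LNCaP on plastic ITGAE was also higher in stripped serum than in control medium (1.19 ± 0.21, 9.11 against 4.13 CPM, adjusted p = 0.00614). For surface in stripped serum, 0 of 10 integrins tested outside the members were called in LNCaP, beside 6.12% of all genes tested. All comparisons of this paragraph in control medium, those in RWPE and that of ITGAE between media run against the plastic control libraries that also held FGG.

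In LNCaP, ITGA6 fell in stripped serum on both surfaces and ITGB5 rose in it on ACP. ITGA6 measured 84.2 and 79.5 CPM in control medium on plastic and 32.3 and 41.5 CPM in stripped serum, a log2 difference of -1.09 ± 0.21 (adjusted p = 0.0086). On ACP it measured 52.1 and 62.7 CPM in control medium and 29.3 and 34.6 CPM in stripped serum (-0.86 ± 0.21, adjusted p = 0.0377). Groups did not overlap on either surface, as was the case for 59.4% of all genes tested on plastic and 52.9% on ACP. The 2 comparisons have no library in common. That on plastic runs against plastic control libraries, so whatever set those apart cannot be told apart from medium there. On plastic the call was lost without plastic control replicate 1 (adjusted p = 0.079), plastic control replicate 2 (0.0518) or stripped replicate 1 (0.0885). On ACP it was lost without any of the 4 libraries (adjusted p 0.0568 to 0.279) and in the fit of all lines (0.0577).

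ITGB5 on ACP measured 39.9 and 46.0 CPM in control medium and 84.6 and 86.7 CPM in stripped serum in LNCaP, a difference of 0.98 ± 0.22 (adjusted p = 0.0248). This call was lost without any of the 4 libraries (adjusted p 0.0574 to 0.128) and in the fit of all lines (0.102), with the log2 difference between 0.89 and 1.05. On plastic ITGB5 differed by 0.33 ± 0.21 (adjusted p = 0.385). In all, 1 of 9 members tested was called for serum on plastic and 2 of 9 on ACP, beside 9.45% and 5.37% of all genes tested. FN1 moved in opposite directions on the 2 surfaces in LNCaP, by -1.30 ± 0.32 on plastic (adjusted p = 0.0273) and by 1.30 ± 0.32 on ACP (adjusted p = 0.0398).

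In the bone metastasis lines no member was called for serum. VCaP on plastic had 0 of 10 called, with 4 at an unadjusted p below 0.05 and none by DESeq2, beside 0.890% of all genes. VCaP on ACP had 0 of 10 called, with none at an unadjusted p below 0.05 and none by DESeq2, beside 0.820% of all genes. MDAPCa2a on plastic had 0 of 9 called, with 2 at an unadjusted p below 0.05 and 1 by DESeq2, beside 1.58% of all genes. That gene was ITGA6, at 77.6 and 63.8 CPM in control medium and 41.7 and 33.1 CPM in stripped serum (-0.88 ± 0.27, adjusted p = 0.144 in edgeR). ITGA6 in VCaP was at 130 and 141 CPM against 102 CPM on plastic, and at 121 and 110 CPM against 83.1 and 95.7 CPM on ACP. So ITGA6 was lower in every stripped serum library than in either control library of the same line and surface, in all 5 comparisons, as were 1.98% of the 12906 genes tested in all of them. The differences between lines were not called: for LNCaP against VCaP on plastic the test gave -0.76 ± 0.38 (adjusted p = 0.267).

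With androgen on ACP, ITGA6 and ITGB1 rose and ITGB4 fell in VCaP, and ITGAV rose in LNCaP. In MDAPCa2a, 0 of 9 members were called, none had an unadjusted p below 0.05 and none was called by DESeq2, in a comparison where 0% of all genes tested were called (DESeq2 called 3, and 236 had an unadjusted p below 0.05).

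**Figure D3:**
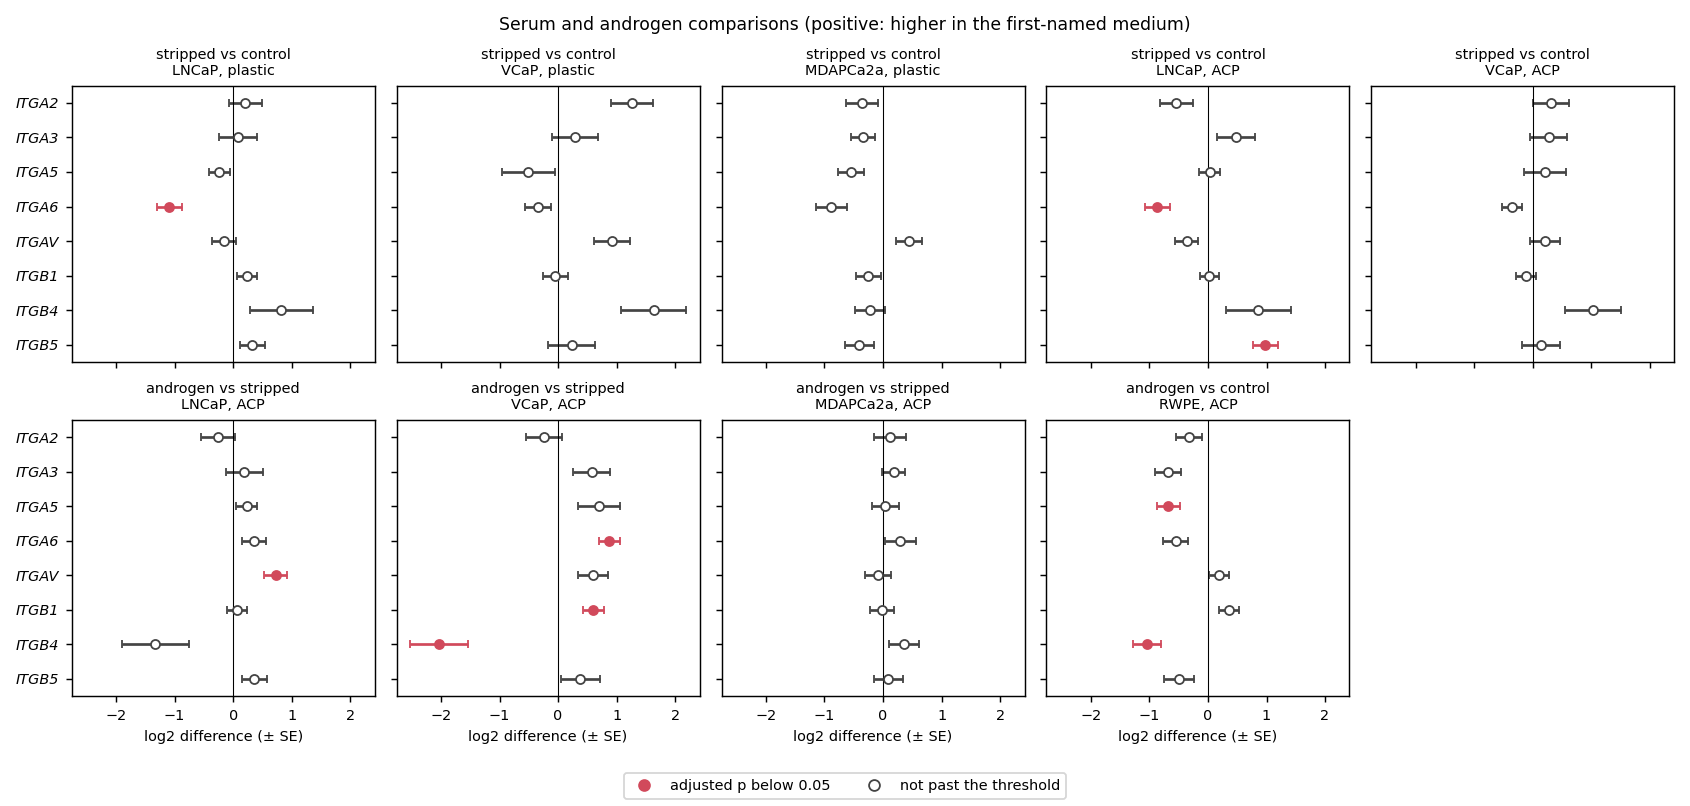
Log2 difference (x axis, points with SE bars) of 8 integrin genes (y axis) for stripped serum against control medium, androgen against stripped serum, and androgen against control medium in RWPE; positive values are higher in the first-named medium, filled red points passed the threshold, and ITGB3 and ITGB6 are left out. ITGA6 lies left of 0 in each of the 5 panels on stripped serum, and ITGB4 in VCaP with androgen lies at -2.03.

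In VCaP, ITGA6 measured 83.1 and 95.7 CPM in stripped serum on ACP and 166 and 162 CPM with androgen, a log2 difference of 0.87 ± 0.18 (adjusted p = 0.0108). ITGB1 measured 195 and 216 CPM without and 310 and 313 CPM with androgen (0.60 ± 0.18, adjusted p = 0.0441). The androgen libraries of both genes lay above all other VCaP libraries, on either surface, and how many of all genes did so was not counted. Between stripped serum and androgen on ACP, 7 of 10 members had groups that did not overlap, as did 61.3% of all genes tested. ITGB4 measured 17.5 and 6.24 CPM without and 3.73 and 2.09 CPM with androgen (-2.03 ± 0.50, adjusted p = 0.0224). ITGA6 lost its call without stripped replicate 1 (adjusted p = 0.0558) or androgen replicate 2 (0.0568). ITGB1 lost it without any of the 4 libraries (0.0702 to 0.16) and without the count filter (0.0573). ITGB4 lost it without stripped replicate 1, where the log2 difference was -1.05 (adjusted p = 0.174), or without androgen replicate 2 (-1.67, adjusted p = 0.144). In VCaP 3 of 10 members were called, beside 17.5% of all genes tested.

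Markers of other cell types moved in the same VCaP comparison. The summed leukocyte markers were at 8.07 to 14.7 CPM without and 82.0 to 155 CPM with androgen, of which LYZ, lysozyme, made up 80.4 to 153 CPM with androgen, while PTPRC was at most at 0.0481 CPM and CD3E at 0 in these 4 libraries. The fibroblast sum went from 40.9 to 162 CPM down to 7.66 to 8.58 CPM, most of it LUM, a matrix proteoglycan, at 36.2 to 152 CPM without androgen. COL1A2 was at 0 without and at most at 0.131 CPM with androgen. The endothelial sum went from 0.674 to 1.43 CPM up to at most 12.1 CPM, from PECAM1 and VWF, with CDH5 at 0 throughout. The part of these other changes in the integrin differences was not tested.

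KRT5, a keratin of basal cells that was abundant in RWPE, was at 3.79 to 12.3 CPM in VCaP libraries. If all of it came from RWPE libraries on plastic, which was not tested, it would at the ratio of ITGB4 to KRT5 found there equal 5.49% to 138% of the ITGB4 reads of a VCaP library, with a median of 17.4%, and the highest share belongs to androgen replicate 2. The same reckoning gives at most 32.8% of ITGB4 in LNCaP and at most 15.2% in MDAPCa2a. The part of KRT5-linked reads in the ITGB4 difference was not tested.

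In LNCaP, ITGAV measured 104 and 120 CPM in stripped serum on ACP and 200 and 170 CPM with androgen (0.72 ± 0.20, adjusted p = 0.0496). The groups did not overlap, as was the case for 3 of 9 members and 56% of all genes tested. The call was lost without stripped replicate 1 (adjusted p = 0.269), stripped replicate 2 (0.142) or androgen replicate 1 (0.255), and in the fit of all lines (0.065). ITGB4 was at 8.71 and 8.40 CPM without and at 1.45 and 5.39 CPM with androgen (-1.33 ± 0.57, adjusted p = 0.181), and without androgen replicate 2 it was called, at -2.55 (adjusted p = 0.0246). In LNCaP 1 of 9 members tested was called, beside 7.73% of all genes tested. VCaP showed ITGAV at 112 and 130 CPM without and 166 and 200 CPM with androgen (0.59 ± 0.26, adjusted p = 0.133). Among the partner genes, LAMC1, the laminin gamma chain of most basement membranes, rose with androgen in LNCaP (1.99 ± 0.40, adjusted p = 0.0141) and in VCaP (2.08 ± 0.41, adjusted p = 0.0102). NPNT fell in VCaP (-2.01 ± 0.38, adjusted p = 0.00834), as did FERMT1, a kindlin that activates integrins (-1.38 ± 0.31, adjusted p = 0.0154), and the focal adhesion scaffold PXN rose (0.94 ± 0.24, adjusted p = 0.0264).

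In RWPE on ACP, ITGB4 and ITGA5 fell in androgen medium against control medium. ITGB4 measured 967 and 730 CPM in control medium and 277, 448 and 496 CPM with androgen (-1.04 ± 0.24, adjusted p = 0.0208). ITGA5 measured 99.1 and 84.0 CPM in control medium and 42.0, 63.5 and 64.3 CPM with androgen (-0.67 ± 0.20, adjusted p = 0.0419). ITGA3 came close, at 623 and 479 CPM against 242, 403 and 370 CPM (-0.68 ± 0.22, adjusted p = 0.0546), and ITGA6 was at 403 and 429 CPM against 199, 321 and 324 CPM (-0.55 ± 0.22, adjusted p = 0.0946). In all 4 genes each androgen library lay below both control libraries. In this comparison 5 of 9 members had groups that did not overlap, beside 49.2% of all genes tested. ITGB1 went the other way, from 415 and 447 CPM to 515, 532 and 593 CPM (0.36 ± 0.17, adjusted p = 0.154).

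Androgen replicate 1 was the lowest of the 3 for ITGA2, ITGA3, ITGA5, ITGA6, ITGB4 and ITGB5 in RWPE. Without it ITGB4 differed by -0.83 (adjusted p = 0.0371) and ITGA5 by -0.51 (adjusted p = 0.0839). Replicate 3 differed more from the other 2 over all genes (chi-square per gene 125 and 92.2, against 31.9 between replicates 1 and 2). Without it 5 members were called, ITGA2 (-0.54, adjusted p = 0.0286), ITGA3 (-0.74, 0.0167) and ITGA6 (-0.65, 0.0213) beside ITGA5 (-0.76, 0.00798) and ITGB4 (-1.19, 0.00141). Without replicate 2, ITGA3 was called as well (-0.83, adjusted p = 0.0477). Without either control library neither gene was called (ITGB4 adjusted p 0.0913 and 0.275, ITGA5 0.129 and 0.31), and the fit of all lines did not call ITGB4 (0.0774). Here 2 of 9 members tested were called, beside 19.1% of all genes tested. The sum of the basal markers KRT5, KRT14 and TP63 moved as well, from 12646 to 15852 CPM in control medium on ACP to 3358 to 11098 CPM with androgen; its part in these differences was not tested. Of 26 focal adhesion genes 10 fell and 1 rose (median -0.58, against -0.02 over all genes). The largest fall was TNS1, a tensin that binds integrin tails (-1.32 ± 0.22, adjusted p = 0.017). Of 20 matrix ligand genes 7 fell and 1 rose, with the laminin chain LAMB3 at -1.08 ± 0.22 (adjusted p = 0.0172), and 3 of 7 hemidesmosome and tetraspanin partners fell, with the tetraspanin CD82 at -1.34 ± 0.28 (adjusted p = 0.0179).

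By far the widest differences of these 10 genes lay between the lines. ITGA2, ITGA3, ITGA5, ITGA6, ITGB4 and ITGB6 were lower in all 3 cancer lines than in RWPE, both on plastic in control medium and on ACP with androgen, the 2 conditions with libraries of all 4 lines. RWPE had its own serum-free control medium and MDAPCa2a plastic its FNC coating, so medium and, on plastic, coating cannot be told apart from line. ITGAV was higher in all 3 lines on ACP with androgen, as was ITGB5. Calls between lines were common among all genes, at 57.4% (LNCaP), 62.4% (VCaP) and 56.7% (MDAPCa2a) on plastic and at 66.9%, 67.4% and 64.0% on ACP with androgen. The members' counts were 6, 7 and 9 of 10 on plastic and 8, 10 and 9 of 10 on ACP with androgen. ITGB3 is among the 9 in MDAPCa2a on plastic, on 2 reads in that group, a call that DESeq2 did not make. It is also among the 10 in VCaP, against 2 reads in the 3 RWPE libraries with androgen.

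**Figure D4:**
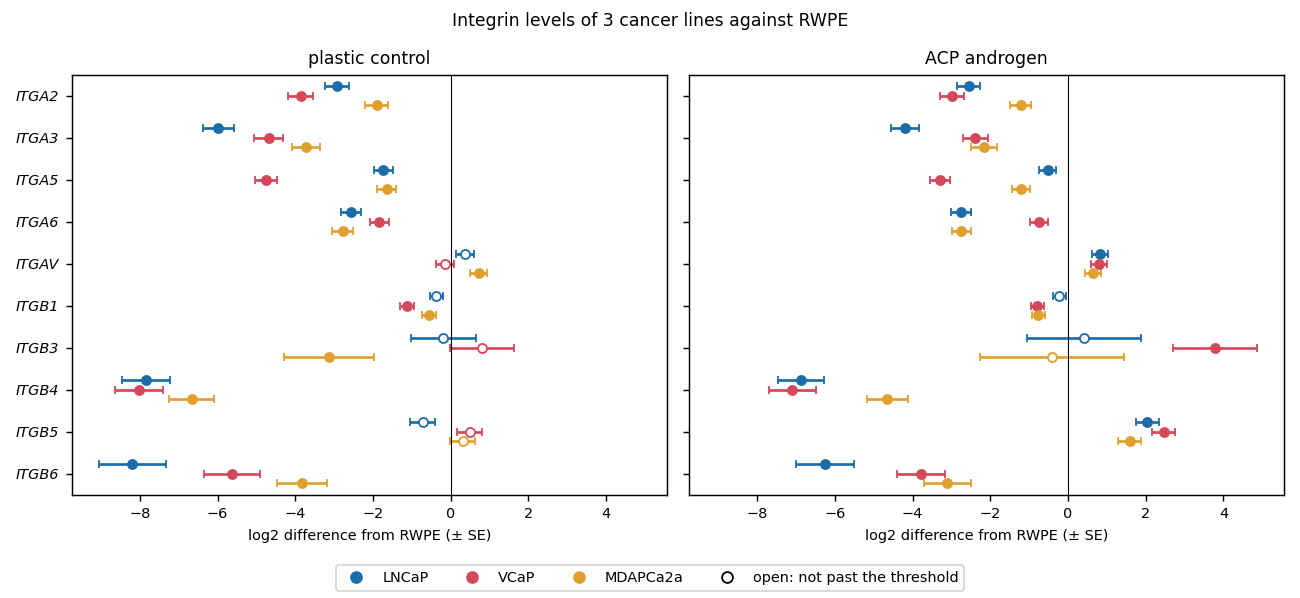
Log2 difference from RWPE (x axis, points with SE bars) of the 10 integrin genes (y axis) in LNCaP, VCaP and MDAPCa2a on plastic in control medium (left) and on ACP with androgen (right); filled points passed the threshold. ITGB4 lies between -8.02 and -4.65, and ITGAV and ITGB5 lie right of 0 in all 3 lines on ACP with androgen.

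Among the laminin receptor genes, ITGB4 differed most between RWPE and the cancer lines. ITGB4 was at 1874 and 1690 CPM in RWPE on plastic, at 5.92 and 9.36 CPM in LNCaP (log2 difference -7.85 ± 0.62), at 5.33 and 8.21 CPM in VCaP (-8.02 ± 0.63) and at 17.4 and 17.4 CPM in MDAPCa2a (-6.67 ± 0.59). VCaP and LNCaP did not differ beyond their spread (-0.17 ± 0.48, adjusted p = 0.796). VCaP was lower than MDAPCa2a by a log2 difference of -1.35 ± 0.48 (adjusted p = 0.0223), a call lost without VCaP replicate 1 or either MDAPCa2a library (-1.70 to -1.07). ITGA3 fell from 1257 and 1228 CPM in RWPE to 88.4 and 98.0 CPM in MDAPCa2a, 40.6 and 54.7 CPM in VCaP and 19.03 and 19.9 CPM in LNCaP. Each step of this order was called. VCaP was above LNCaP by 1.29 ± 0.33 (adjusted p = 0.00217) and below MDAPCa2a by a log2 difference of -0.96 ± 0.33 (adjusted p = 0.0175), the latter lost without VCaP replicate 1 or MDAPCa2a replicate 1 (-1.19 to -0.75 over the libraries left out).

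ITGA6 was lower on plastic in each cancer line by less than ITGA3 and ITGB4. It was there at 485 and 493 CPM in RWPE, 130 and 141 CPM in VCaP, 84.2 and 79.5 CPM in LNCaP and 77.6 and 63.8 CPM in MDAPCa2a. VCaP was above LNCaP (0.73 ± 0.25, adjusted p = 0.0149) and MDAPCa2a (0.95 ± 0.25, adjusted p = 0.00222), and these last 2 did not differ beyond their spread (adjusted p = 0.503). The call against LNCaP was lost without either LNCaP library or VCaP replicate 2 (adjusted p up to 0.0845). On ACP with androgen VCaP, at 166 and 162 CPM, came within 0.75 ± 0.23 of RWPE, whose 3 libraries spanned 199 to 324 CPM. That call was lost without VCaP androgen replicate 2 (-0.67, adjusted p = 0.0572).

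The receptors for collagen and fibronectin had their own order. ITGA2 on plastic was at 82.3 and 88.4 CPM in RWPE, 27.6 and 17.9 CPM in MDAPCa2a, 10.9 and 11.2 CPM in LNCaP and 4.89 and 6.67 CPM in VCaP. Each step was called, with adjusted p = 0.00646 between MDAPCa2a and LNCaP and 0.0113 between VCaP and LNCaP. The first was lost without MDAPCa2a replicate 1 (adjusted p = 0.135) and the second without VCaP replicate 1 (0.116). ITGA5 was at 148 and 174 CPM in RWPE, at 54.9 and 47.7 CPM in MDAPCa2a and at 51.2 and 44.4 CPM in LNCaP, which did not differ beyond their spread (0.09 ± 0.24, adjusted p = 0.805). VCaP stood apart with 5.92 and 5.91 CPM, lower than RWPE by a log2 difference of -4.75 ± 0.28 and lower than LNCaP by -3.02 ± 0.26. Over all 9 VCaP libraries ITGA5 stayed between 2.24 and 6.17 CPM, below every library of the other lines, whose lowest was at 20.0 CPM. The share of all genes with such a gap was not counted. On ACP with androgen LNCaP, at 34.1 and 43.5 CPM, overlapped RWPE, at 42.0, 63.5 and 64.3 CPM (-0.52 ± 0.22, adjusted p = 0.0412), and the call was lost without LNCaP replicate 1 or RWPE replicate 2 or 3 (adjusted p 0.205 to 0.286).

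ITGB6, which with ITGAV activates latent TGF-beta, was at 16.7 to 39.9 CPM in the 7 RWPE libraries. It was at 1.19 to 3.54 CPM in MDAPCa2a, 0.117 to 3.31 CPM in VCaP and 0.0257 to 0.623 CPM in LNCaP. In LNCaP the same reckoning from KRT5 gives up to 140% of the ITGB6 reads of a library (median 8.22%), and its part in that level was not tested. ITGB3 never passed 0.771 CPM in any library. Its highest value was in VCaP with androgen (18 reads, and 8 in the other library), against 3 and 1 reads in stripped serum on ACP (adjusted p = 0.0905). Next came the VCaP plastic control libraries and 1 of RWPE, at 0.41 to 0.576 CPM, and the VCaP plastic library in stripped serum had 0 reads. A count of 0 allows up to 0.0632 to 0.19 CPM, depending on the library.

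ITGB1, the beta subunit shared by most of these receptors, varied little within a line, with the highest library at 1.28 to 1.61 times the lowest. It was at 415 to 593 CPM in RWPE, 385 to 491 CPM in LNCaP, 257 to 372 CPM in MDAPCa2a and 195 to 313 CPM in VCaP. On plastic LNCaP did not differ from RWPE beyond the threshold (-0.37 ± 0.18, adjusted p = 0.0774), while VCaP was lower by a log2 difference of -1.12 ± 0.18. MDAPCa2a was lower there by -0.55 (adjusted p = 0.00952), with -0.67 to -0.45 over the libraries left out. VCaP also lay below LNCaP (-0.75, adjusted p = 0.000903) and MDAPCa2a (-0.57, adjusted p = 0.00911). With androgen on ACP, VCaP (-0.79, adjusted p = 0.000178) and MDAPCa2a (-0.76, adjusted p = 0.000276) were lower than RWPE. ITGAV, the RGD receptor alpha subunit, was at 77.3 to 111 CPM in RWPE and at 55.2 to 211 CPM across the cancer lines. On ACP with androgen its log2 difference from RWPE was 0.82 ± 0.20 for LNCaP, 0.81 ± 0.20 for VCaP and 0.65 ± 0.21 for MDAPCa2a, the last call being lost without MDAPCa2a androgen replicate 1 (adjusted p = 0.0715). On plastic it was called only in MDAPCa2a (0.72 ± 0.23), and not without its replicate 1 (0.45) or RWPE replicate 2 (0.60).

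ITGB5 was called between RWPE and the cancer lines on ACP with androgen and not on plastic. On plastic it was at 73.9 and 84.1 CPM in RWPE and did not differ beyond the threshold from LNCaP, VCaP or MDAPCa2a (adjusted p 0.0626, 0.189 and 0.436). On ACP with androgen RWPE was at 17.2, 31.7 and 32.4 CPM, while LNCaP was at 140 and 81.3 CPM (2.04 ± 0.30), VCaP at 146 and 148 CPM (2.46 ± 0.30) and MDAPCa2a at 60.2 and 100 CPM (1.59 ± 0.30). Every cancer line library lay above every RWPE library there, and the share of all genes that did so was not counted.

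Between the cancer lines on plastic, 7 of 10 members were called for VCaP against LNCaP (4 higher and 3 lower, 52.6% of all genes called). For MDAPCa2a against LNCaP there were 5 (4 higher and 1 lower, 40.2% of all genes), and for VCaP against MDAPCa2a 9 (2 higher and 7 lower, 52.4% of all genes). Of the 7 lower members of VCaP against MDAPCa2a, ITGA5 had the largest difference, at -3.11 ± 0.26. ITGB3 counts as called in both comparisons with MDAPCa2a, on 0 and 2 reads in that line. Without MDAPCa2a replicate 1 the count for MDAPCa2a against LNCaP was 2 and that for VCaP against MDAPCa2a was 3. Without VCaP replicate 1 the latter was 4, and without either LNCaP library the former was 3.

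The start regions of 4 of the 6 genes that were lower in every cancer line are shown to set their sequences side by side. Each runs 5′ to 3′ on the gene's strand from 250 bases before the RefSeq start to 10 bases after it (GRCh38.p14), and for ITGA6 the second of its 2 listed starts is given. Capitals mark the GC box GGGCGG or its reverse complement CCGCCC, and the AP-1 motif TGANTCA, which reads the same on both strands.
ITGA2 (chr5:52989102-52989361, + strand): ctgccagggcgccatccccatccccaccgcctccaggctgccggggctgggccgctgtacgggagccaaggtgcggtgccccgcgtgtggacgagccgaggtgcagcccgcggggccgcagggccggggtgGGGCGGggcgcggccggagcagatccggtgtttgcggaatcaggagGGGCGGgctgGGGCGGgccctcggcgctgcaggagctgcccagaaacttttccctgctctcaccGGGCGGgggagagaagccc
ITGA5 (chr12:54419257-54419516, - strand): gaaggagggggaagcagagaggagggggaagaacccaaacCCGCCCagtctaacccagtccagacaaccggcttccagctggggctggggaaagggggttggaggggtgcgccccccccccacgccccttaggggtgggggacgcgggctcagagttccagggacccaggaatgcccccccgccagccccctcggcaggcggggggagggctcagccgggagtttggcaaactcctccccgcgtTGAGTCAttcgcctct
ITGA6 (chr2:172427336-172427595, + strand): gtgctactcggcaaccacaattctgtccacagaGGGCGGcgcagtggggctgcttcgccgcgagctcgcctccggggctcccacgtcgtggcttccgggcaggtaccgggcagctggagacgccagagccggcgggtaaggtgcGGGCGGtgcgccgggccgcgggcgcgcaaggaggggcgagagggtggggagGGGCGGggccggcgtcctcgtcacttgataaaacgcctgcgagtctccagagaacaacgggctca
ITGB6 (chr2:160200263-160200522, - strand): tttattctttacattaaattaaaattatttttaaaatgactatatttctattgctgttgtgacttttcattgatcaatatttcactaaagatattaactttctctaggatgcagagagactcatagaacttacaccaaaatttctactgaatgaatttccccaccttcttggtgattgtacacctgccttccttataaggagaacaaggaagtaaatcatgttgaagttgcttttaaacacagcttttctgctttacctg

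The 4 windows were unlike each other. ITGA2 held 4 GC boxes, ITGA6 3, ITGA5 1 and ITGB6 none, and their GC content was 75.8%, 71.2%, 69.2% and 30.8%. ITGA5 alone of these held an AP-1 match, 6 bases before its start. Of 35116 RefSeq windows of the same length, 43.1% held a GC box and 6.92% an AP-1 match, and the 2 motifs do not overlap each other in these windows. The first ITGA6 start, 250 bases upstream, held no match. ITGB1 held 3 GC boxes at its first start. A match describes letters only.

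Compared per kilobase of exon, the make-up of the beta subunits differed by line. In RWPE on plastic ITGB4 made up 65.4% and ITGB1 29.1% of the 5 beta subunits (means of 2 libraries). On ACP in control medium the shares were 52.2% and 42.2%, and on ACP with androgen 29.9% and 64.5%. In the cancer lines ITGB1 made up 63.1% to 91.1% and ITGB4 at most 3.78%. ITGB5 came next there, with 8.23% to 19.8% in LNCaP and MDAPCa2a and 28.8% to 32.8% in VCaP, against 2.81% to 4.13% in RWPE. The ratio of ITGB4 to its partner ITGA6 per kilobase was 3.44 in RWPE on plastic, 1.94 on ACP in control medium and 1.36 on ACP with androgen, and at most 0.369 in any cancer line group.

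**Figure D5:**
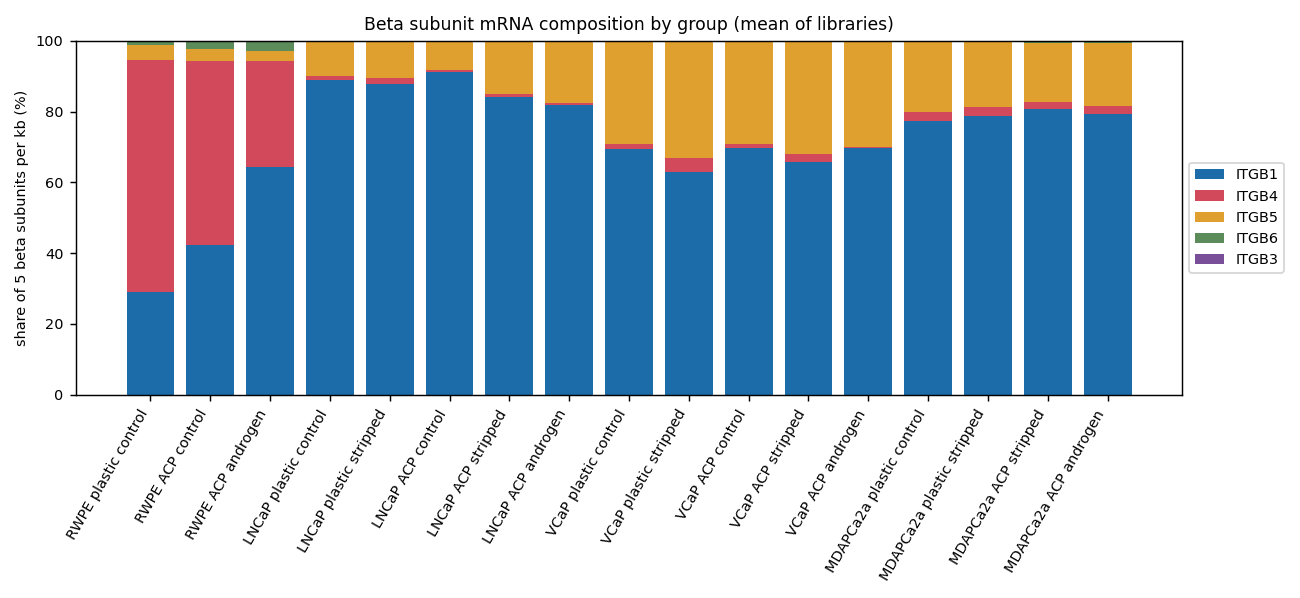
Share of ITGB1, ITGB4, ITGB5, ITGB6 and ITGB3 (%, y axis) in the summed CPM per kilobase of these 5 beta subunits, as the mean of the libraries of each of the 17 groups (x axis). ITGB4 makes up 65.4%, 52.2% and 29.9% in the 3 RWPE groups and at most 3.78% elsewhere.

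The leading alpha subunit also differed by line. Per kilobase, ITGA3 was the highest alpha subunit in every RWPE group, with 254 CPM per kilobase on plastic, 113 on ACP in control medium and 69.2 on ACP with androgen. ITGAV was the highest in all 5 LNCaP groups, from 12.8 to 25.7 CPM per kilobase, and in 3 of the 4 MDAPCa2a groups. In MDAPCa2a plastic control ITGAV (19.3 ± 4.74, SD, n = 2) and ITGA3 (19.1 ± 1.39) did not differ beyond their spread. In VCaP ITGA6 was the highest on plastic in control medium (23.2 against 10.5 for ITGAV), on ACP in control medium (19.8 against 14.7) and on ACP with androgen (28.1 against 25.4). In stripped serum ITGAV was the highest there, on plastic (18.9 against 17.5 for ITGA6) and on ACP (16.8 against 15.3, with libraries that overlap). These per-length levels use the union of annotated exons and are a description with no test.

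The partners of ITGB4 in hemidesmosomes differed between lines in the same direction as ITGB4 only in part. COL17A1, the collagen of hemidesmosomes, was lower than RWPE on plastic by log2 differences of -9.89 ± 0.72 in LNCaP, -10.5 ± 0.74 in VCaP and -10.2 ± 0.73 in MDAPCa2a. On plastic 57.4%, 62.4% and 56.7% of all genes tested were called in LNCaP, VCaP and MDAPCa2a. Of the 7 partner genes, 3 were higher in each cancer line, and 4, 3 and 4 were lower in that order of lines. Among the higher were CD9 in LNCaP (1.20 ± 0.29) and VCaP (1.36 ± 0.29) and CD151, the tetraspanin that binds laminin receptors, in MDAPCa2a (1.55 ± 0.23). Of 20 matrix ligand genes 12 were lower in LNCaP, 11 in VCaP and 14 in MDAPCa2a, and 2, 4 and 3 were higher, so 14, 15 and 17 of 20 were called, beside the 57.4%, 62.4% and 56.7% of all genes given above. The laminin chain LAMB3, which belongs to the laminin of hemidesmosomes, was lower in VCaP (-7.26 ± 0.53), whereas the laminin chain LAMB2 was higher in LNCaP (5.85 ± 0.37) and MDAPCa2a (6.05 ± 0.38).

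Across the 17 group means of log2 CPM, the members that most resembled each other were ITGA3 and ITGB6 (Pearson r = 0.92), ITGA2 and ITGB4 (0.92) and ITGA3 and ITGB4 (0.91). The points share libraries and are dominated by the step from RWPE to the cancer lines. With the mean of each line removed, ITGA3 was most like ITGA5 (0.82), and ITGB1 and ITGB4 ran opposite (-0.55). Among all genes, those most like ITGB4 over group means were RARG (0.98), AMOTL2 (0.98) and TEF (0.97). Those most like ITGA6 with line means removed were SLC1A4 (0.95), TRIB3 (0.94) and SESN2 (0.94), and those most like ITGA3 were MYH9 (0.95), WIPF2 (0.94) and KIF1C (0.93). These are descriptions over 17 groups, with no test.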

How the data were processed

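The authors deposited 1 table of raw read counts for 34 libraries and 26336 gene symbols, with no normalization. Per the labels' protocols, libraries were made with poly(A) selection. The submitters' processing notes name STAR, HTSeq and the build hg19, without versions or roles. The use of strand is not given in the sources used here: ITGA5, ITGA6 and ITGAV overlap exons of genes on the other strand, and ITGB3 and ITGB6 overlap a gene on the same strand, so their reads could be shared.

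Genes were tested with edgeR 4.0.16 in R 4.3.3 (quasi-likelihood F test, TMM size factors, a filterByExpr filter at a count of 10, Benjamini-Hochberg adjustment over all genes of a fit, threshold 0.05). Each line had its own fit for surface, serum and androgen, while lines were set against each other in 1 fit of all 34 libraries. The SE is the log2 difference divided by the square root of F. CPM used TMM sizes over all libraries, log2 CPM for correlations a prior count of 1, and the limit for a count of 0 was 3 counts, which covers counting error only. Lengths came from the GRCh38 annotation, and starts from RefSeq, which had windows for 7 of the 10 members. Steps were tested on simulated counts.

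Alternatives were RLE size factors, no count filter, a replicate block, DESeq2 1.42.0, a fit of all lines, leaving out each library and, chosen after seeing the data, leaving out 12 genes with 16 values in RWPE plastic control between 44562 and 44889 that look like spreadsheet dates. The members, the partner lists (16 other integrins, 26 focal adhesion genes, 22 matrix ligands, 7 hemidesmosome and tetraspanin partners) and the tests were chosen with earlier results of these data known. All 10 members are named, and of each list the largest rise and fall among called genes with at least 5 CPM in the higher group, except for 1 gene that is not reported here. Likeness names the 3 genes with the highest r per member, of which some are printed. No replicate pair agreed within sampling noise (chi-square per gene of 10.2 or more).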

Additional observations from a re-analysis of the deposited data

Results flagged for a closer look

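The difference between stripped serum and androgen medium on ACP differed between VCaP and MDAPCa2a for ITGB4, the beta subunit of hemidesmosomes. ITGB4 fell in VCaP from 17.5 and 6.24 CPM to 3.73 and 2.09 CPM and was at 8.81 and 15.6 CPM without and 13.5 and 18.4 CPM with androgen in MDAPCa2a. The test of the difference, VCaP minus MDAPCa2a, gave a log2 value of -2.41 ± 0.72 (SE, adjusted p = 0.0393, edgeR fit of all lines), in a contrast added after seeing the data that called 1362 of 17323 genes. No other contrast of this kind between lines or media was called for any of the 10 members. KRT5 reads, taken at the ratio of ITGB4 to KRT5 in RWPE on plastic, would equal up to 138% of ITGB4 in VCaP and up to 15.2% in MDAPCa2a, and their part was not tested.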

How the results depend on the processing

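RLE size factors changed none of the 98 results of single members called in the main test or, within a line, under any alternative. Under every alternative 50 of the 98 kept direction and call, all of them among the 70 called differences between lines. None of the results for surface, serum or androgen among the 98 kept both throughout. Those of them not called in the main test are included only because an alternative called them. Counts of called members moved as follows. The share of all genes called under each setting is not printed, so a moved count is not read as a result about the members. Without the count filter they were 4 for RWPE on ACP against plastic (main 1), 2 and 1 for LNCaP in control medium and stripped serum (main 0), 1 each for serum on plastic in VCaP and MDAPCa2a (main 0), and 2 for androgen in LNCaP (main 1). DESeq2 gave 4 for surface in RWPE, 4 for androgen in RWPE (main 2) and 1 for serum in MDAPCa2a. The fit of all lines gave 2 for serum on plastic in VCaP, 1 for serum in MDAPCa2a, 0 for serum on ACP in LNCaP (main 2), 0 for androgen in LNCaP and 1 for androgen in RWPE. A replicate block gave 4 for surface and 6 for androgen in RWPE and moved no other count by over 1.5 times. Under it these calls were lost: ITGB1 for androgen in VCaP, ITGB6 for VCaP and ITGB5 for MDAPCa2a against LNCaP, ITGA3 and ITGB4 for VCaP against MDAPCa2a, and against RWPE on ACP with androgen ITGA5 in LNCaP and ITGA6 in VCaP. The numbers are not taken as pairs, since no label ties them to a shared culture or day and deviations of same-numbered libraries correlated between -0.235 and 0.207. Leaving out 1 library gave 0 for surface in RWPE and 0 to 2 in LNCaP in control medium, 0 to 1 for serum in LNCaP on either surface, and 0 to 3 for androgen in LNCaP, 0 to 2 in VCaP and 0 to 5 in RWPE. It gave 2 to 5 for MDAPCa2a against LNCaP and 3 to 9 for VCaP against MDAPCa2a. Signs turned for ITGA3 with serum on ACP in LNCaP (main 0.47, -0.0026 to 1.16) and for ITGB5 with androgen in LNCaP (main 0.36, -0.0945 to 0.71). With 2 libraries in most groups, leaving 1 out assumes that the lone library varies like the rest. The log2 shift of RLE against TMM was at most 0.099. At 0 to 24 reads, ITGB3 could not be compared between most groups.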
